A study of Mus musculus with 5 samples.

Results

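The hair follicle bulge and outer root sheath cells of mouse skin were picked from single-cell RNA profiles by their transcripts, and 378 such cells were found among 26845 cells kept from 5 libraries. In each cell, a transcript molecule was counted once through its unique molecular identifier (UMI). A cell was counted as a follicle cell when Krt5 and Krt14, the basal keratins, together made up at least 50 of every 10000 UMIs and at least 2 of the 5 genes Cd34, Lgr5, Lhx2, Nfatc1 and Fgf18 had a UMI. Cells with 5 or more Krt79 UMIs per 10000 were left out, as were those with 100 or more of Krt1 with Krt10. Cells with 50 or more of Col1a1 with Col1a2 and Col3a1 were left out too. These limits take out cells rich in those upper follicle, spinous and collagen transcripts, and cells with other upper follicle genes can remain. The wounded group has 3 libraries from C57BL/6 skin, collected 4 days after mice of 7 weeks received a 6-mm punch wound. Each was cut out with a 10-mm punch, so that skin around the wound came with it. The un-wounded group has 2 libraries from normal skin of the same strain, for which the labels give no age. The labels do not say whether libraries come from separate or pooled animals, so the p-values measure only the spread between libraries. Sorting was for live cells alone.

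The bulge is the part of the hair follicle below the sebaceous gland where slow-cycling stem cells rest between hair cycles. The outer root sheath is the basal layer of the follicle that runs on from it, and it gives rise to the next bulge. Stem cells there are known for the surface protein CD34, the keratin K15 and the transcription factors SOX9, LHX2, TCF3 and NFATC1. BMP and FGF18 signals keep them quiet and WNT signals start hair growth. After a wound, bulge cells and their progeny are known to move into the epidermis and help to close it.

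The follicle cells numbered 49, 25 and 14 in wounded libraries 1, 2 and 3, and 78 and 212 in un-wounded libraries 1 and 2. Their median depth was 5714, 6344 and 14700.5 UMIs per cell in the wounded libraries, against 4610 and 7126 in the un-wounded ones, so the 14 cells of wounded library 3 were the deepest. Summed over cells, the libraries held 324681, 192152 and 228679 follicle cell UMIs when wounded, against 465540 and 1734556 when un-wounded. No cell barcode of a follicle cell occurred in a second library. Cells with UMIs of at least 3 markers of a single other cell type (vascular, immune, pigment or muscle) numbered 4, 7 and 8 in the wounded libraries and 4 and 4 in the un-wounded ones. In wounded library 3 they were therefore 8 of 14 follicle cells, most of them with dendritic cell markers. Levels below are in CPM, the UMIs of a gene for every 1000000 UMIs summed over the cells.

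The 5 genes of the selection were found together in some combinations far more than in others. These counts describe the selection and carry no test. Lhx2, a transcription factor needed to maintain follicle stem cells, was seen in 295 of the 378 cells, and Cd34, a surface sialomucin, in 289. Nfatc1, a transcription factor of quiescent bulge cells, was seen in 184 cells. Lgr5, a receptor that strengthens WNT signals, was seen in 129 cells. Fgf18, a secreted growth factor, was seen in 35. The pair of Cd34 and Lhx2 was the most frequent, in 211 cells or 55.8%, and Lgr5 with Fgf18 was seen in 13. Exactly 2 of the 5 genes were seen in 234 cells, 3 in 116 cells, 4 in 24 cells and all 5 in 4 cells. Just outside the selection lay 1021 keratinocytes that met every other condition with exactly 1 of the 5 genes.

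The level of Cd34 was 351, 224 and 118 CPM in wounded follicle cells and 500.5 and 488 CPM in un-wounded ones. The level of Lhx2 was 185, 239 and 70 CPM in wounded cells and 378 and 235 CPM in un-wounded ones. Lgr5 had 55.4, 78.1 and 13.1 CPM in wounded cells and 75.2 and 74.4 CPM in un-wounded ones. All 3 genes were lowest in wounded library 3, whose follicle cells were the deepest. These genes chose the cells, so their levels are a description and nothing is read from them about wounding. Nfatc1 had 157, 67.7 and 74.3 CPM in wounded cells and 125 and 79.0 CPM in un-wounded ones. Fgf18 was at 0, 5.20 and 0 CPM in wounded cells, against 19.3 and 35.2 CPM in un-wounded ones.

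Free RNA can place a UMI in a cell that does not express the gene. In cells with the leukocyte gene Ptprc and little keratin or collagen RNA, which should lack the follicle programme, at least 2 of the 5 genes were seen in 2.10%, 2.20% and 0.759% of cells of the wounded libraries. In un-wounded library 2 it was 1.36%, and 0 of 7 such cells of un-wounded library 1 had them, which allows up to 42.9%. The median depth of these leukocytes was 5929, 6249.5 and 7272 UMIs in the wounded libraries, and 2131 and 4312 UMIs in the un-wounded ones. Cd34 and Nfatc1 were the genes seen most often there, with UMIs in 7.69%, 10.7% and 5.98% of these leukocytes (Cd34) and in 12.4%, 14.8% and 9.87% (Nfatc1) in the wounded libraries. In un-wounded library 2 the shares were 12.7% for Cd34 and 6.33% for Nfatc1. Lhx2 and Lgr5 were each seen in under 1% of them in every library. Whether these leukocytes make Cd34 or Nfatc1 themselves was not tested, so the shares above cannot be read as rates of free RNA.

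Of the 5 markers of the label, 3 were used to select the cells, and Krt15 and Sox9 were left to check it. The comparison set was 5751 keratinocytes that passed the same keratin and collagen limits and had none of the 5 genes. They numbered 1785, 73 and 192 in wounded libraries 1, 2 and 3, and 2659 and 1042 in the un-wounded ones. Sox9, the transcription factor of follicle stem cells and outer root sheath, had 329.6, 401 and 394 CPM in follicle cells of the wounded libraries and 234 and 233 CPM in those of the un-wounded ones. In the other keratinocytes of the same libraries it had 46.8, 127 and 21.4 CPM when wounded and 37.3 and 27.8 CPM when un-wounded. It was higher in follicle cells in all 5 libraries, by 6.11-fold on the mean over libraries. Cells with exactly 1 of the 5 genes lay between the others for Sox9 in un-wounded library 1, at 90.4 CPM, and reached 389.6 CPM in wounded library 2.

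Krt15 did not set the follicle cells apart. It had 11223, 8363 and 5217 CPM in wounded follicle cells and 15636 and 11707 CPM in un-wounded ones. In the other keratinocytes it had 12742, 4448 and 5037 CPM when wounded and 17484 and 8709 CPM when un-wounded, a mean ratio of 1.08. Krt15 RNA is also known from interfollicular basal cells of mice, so the check of the label rests here on Sox9 alone.

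The genes with the largest ratio between follicle cells and other keratinocytes show what else these cells carried. They follow from the selection and are a description, since cells chosen for follicle transcripts must differ in genes that go with them. The 15 largest ratios among genes of at least 100 CPM belonged to Shisa2, Wfdc3, Tbx1, Serpinb11, Tgm5, Calml3, Ank, Krt24, Fam101b, Aspn, Pthlh, S100a4, Nrtn, Postn and Sfrp1. Shisa2, which dampens WNT and FGF receptors, had 166, 114 and 153 CPM in wounded follicle cells and 185 and 119.9 CPM in un-wounded ones. In the other keratinocytes Shisa2 was at 2.08 CPM or less in each library, so the follicle cells were 154-fold higher on the mean. Tbx1, a transcription factor of bulge stem cells, had 73.9, 125 and 35 CPM in wounded follicle cells and 199.8 and 166 CPM in un-wounded ones. In other keratinocytes Tbx1 did not pass 2.08 CPM. Wfdc3 stood 153-fold higher, Tgm5, a transglutaminase, 74.2-fold, Calml3 54.5-fold and Krt24, a keratin of bulge cells, 28.4-fold.

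Postn, a matrix protein that binds integrins, was the most abundant of the 15 in 4 of the 5 libraries. It had 1287, 749 and 1281 CPM in wounded follicle cells and 1159.9 and 1035 CPM in un-wounded ones, so the groups overlapped. Other keratinocytes had 74.3, 102 and 178 CPM of Postn when wounded and 37.2 and 54.7 CPM when un-wounded. The growth factor Ptn was high too, at 1577, 1254 and 1172 CPM in wounded follicle cells and 1963 and 2366 CPM in un-wounded ones. Aspn and S100a4 were also strong in the cells with under 5 UMIs of Krt5 and Krt14 per 10000, a set that holds other cell types and differentiated keratinocytes. There Aspn had 485, 200.5 and 190.1 CPM in the wounded libraries and 192 and 289.8 CPM in the un-wounded ones. How much RNA from those cells adds to the follicle values was not tested.

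**Figure D1:**
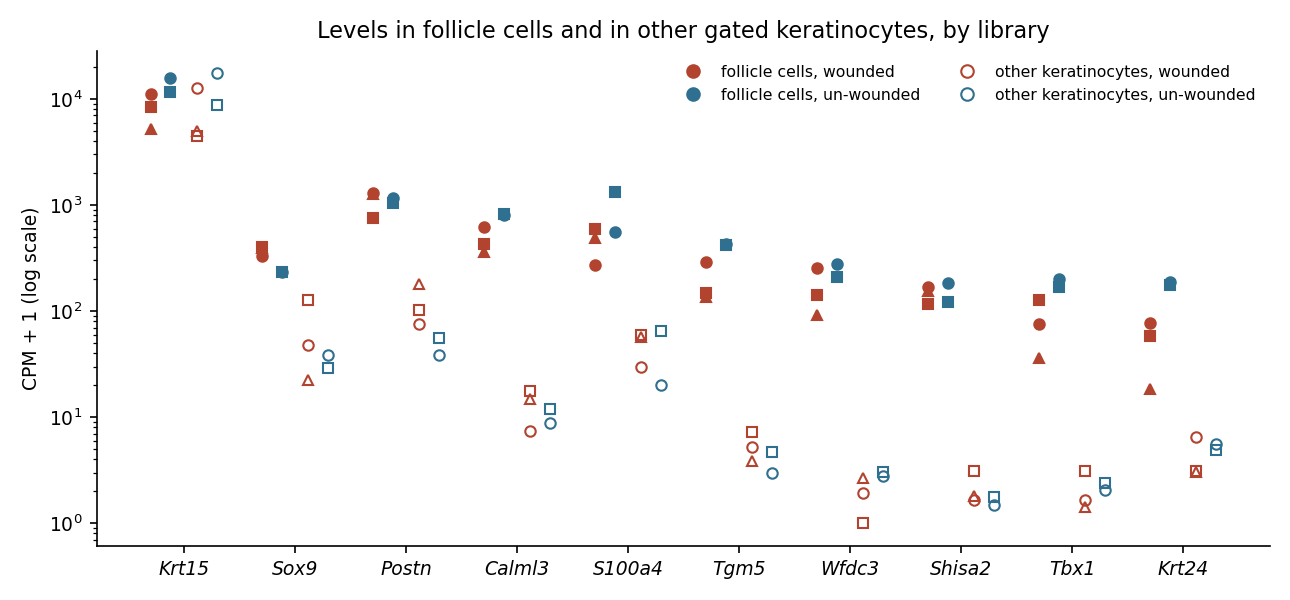
CPM + 1 on a log axis of 10 genes in follicle cells (filled) and in other gated keratinocytes with none of the 5 selection genes (open), each point a library (circle, square and triangle are replicates 1, 2 and 3; wounded red, un-wounded blue; a level of 0 lies at 1). Krt15 overlaps between both kinds of cell, whereas Sox9 lies 6.11-fold higher in follicle cells and Shisa2 154-fold higher.

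Short promoter stretches of 3 of these 15 genes are shown because Sox9 marks the cells and these windows hold a SOX-type core. SOX proteins bind DNA through a core that includes AACAAT, and these 6 letters were searched on both strands from 250 bases before to 50 bases after each RefSeq gene start of build GRCm38.p6. Of the 15 genes, 12 had promoters in the RefSeq table, 14 in all, and 3 of these 14 promoters (of Postn, S100a4 and Aspn) held the letters, against 10.7% of all 32851 promoters. Capitals mark the core, written as ATTGTT where it lies on the other strand. The Postn window, chr3:54359062-54359147 on the plus strand, has its core 165 bases before a RefSeq start. The GENCODE position of Postn begins further downstream, at 54361109. The S100a4 window is chr3:90603713-90603769 and the Aspn window chr13:49544193-49544266, both on the plus strand. A match is a description of the letters and not a bound site.
Postn: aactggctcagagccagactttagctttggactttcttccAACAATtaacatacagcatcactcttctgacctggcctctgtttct
S100a4: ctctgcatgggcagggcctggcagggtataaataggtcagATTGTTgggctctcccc
Aspn: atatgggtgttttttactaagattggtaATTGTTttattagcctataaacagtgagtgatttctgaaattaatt

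The 378 cells were not uniform and fell into 9 sub-clusters. The clusters were made from these cells, so their genes are a description with no test. Sub-clusters 4 (83 cells) and 2 (57 cells) had the most Cd34, a gene of the selection, at 1092 and 1060.1 CPM, with Krt15 at 20533 and 19402 CPM and the growth factor Ptn at 3127 and 2768 CPM. Both also carried Krt24, at 479 and 468 CPM, and S100a4, at 2964 and 2786 CPM. Sub-cluster 8 (17 cells) had the highest Krt15, at 31299.5 CPM, with Fgf18 at 483 CPM and Krt75, a keratin of the companion layer and the inner bulge, at 113 CPM. All 17 cells of it came from un-wounded skin, 2 from library 1 and 15 from library 2.

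Sub-cluster 3 (56 cells) had the follicle keratin Krt17 at 24834 CPM, with Aspn at 1083 CPM, Pthlh at 810.1 CPM and Tgfb2 at 215 CPM. Sub-cluster 6 (15 cells) had less Krt17, at 6473 CPM, with the BMP inhibitor Grem1 at 426 CPM and Tgfb3 at 178 CPM. Sub-cluster 0 (54 cells) held Lgr5 at 114 CPM with little Cd34, at 69.2 CPM, and was led by Cldn10, a tight junction protein, at 315 CPM, and Mfap2 at 252 CPM. Sub-cluster 7 (36 cells) was led by the defensin Defb6, at 424 CPM, with Ly6d at 1633 CPM. It had little Cd34, at 110 CPM. Of the isthmus and upper follicle genes, Lrig1 was highest there too, at 79.6 CPM, while Cst6, Lgr6 and Plet1 were each higher in another sub-cluster. Sub-cluster 5 (27 cells) had the alarmin Il33 at 248 CPM, Klf5 at 280.4 CPM and Serpinb2 at 1945 CPM. Its Cd34 was at 87.4 CPM. These sub-clusters reach from Cd34-rich to Ly6d-rich cells, and none is given a cell type name here. The selection thus also holds cells poor in Cd34 that carry upper follicle or interfollicular genes.

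Sub-cluster 1 (33 cells) was led by genes of other kinds. It had Top2a and Ube2c, 2 genes of dividing cells, at 242 and 387 CPM, and Fabp4, a lipid carrier of fat and vascular cells, at 1394 CPM. Its median depth was 13973 UMIs, the highest of the 9, and 15 of its 33 cells held at least 3 markers of another cell type. It took 9 of 49, 7 of 25 and 9 of 14 follicle cells in the wounded libraries, and 2 of 78 and 6 of 212 in the un-wounded ones. Sub-clusters 4 and 2 together took 12, 5 and 1 cells in the wounded libraries and 29 and 93 in the un-wounded ones. Sizes of sub-clusters were not tested between groups, because the genes that define them can differ between the groups.

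**Figure D2:**
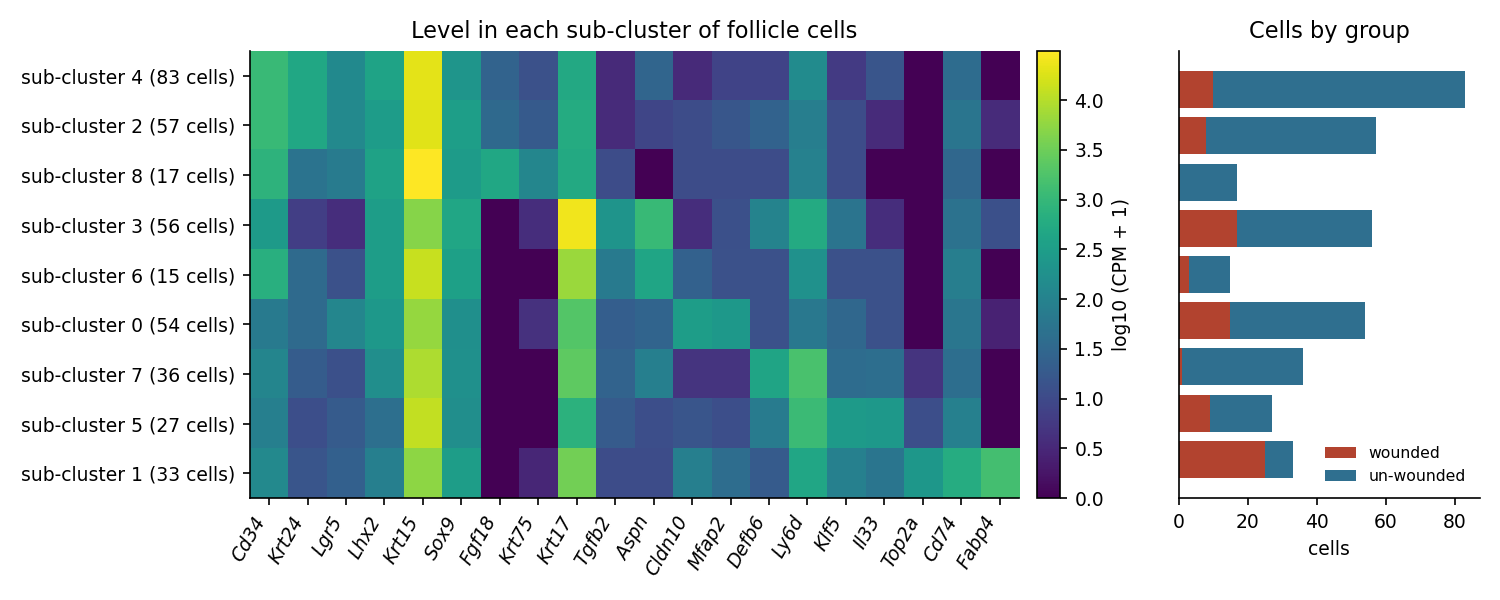
Left, level of 20 genes in the 9 sub-clusters of follicle cells as log10 of CPM + 1 (colour). Right, the number of cells of each sub-cluster from wounded (red) and un-wounded (blue) libraries; Cd34 and Krt24 are highest in sub-clusters 4 and 2, Krt17 in sub-cluster 3, and sub-cluster 1 holds Top2a, Cd74 and Fabp4.

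Follicle cells were a smaller share of all kept cells in each wounded library than in either un-wounded library, and the design is too small for a test to pass. They made up 0.652%, 0.547% and 0.339% of kept cells in the wounded libraries and 1.48% and 3.94% in the un-wounded ones. The exact 95% binomial intervals ran from 0.483% to 0.861%, from 0.355% to 0.807% and from 0.186% to 0.569% in the wounded libraries. They ran from 1.17% to 1.85% and from 3.44% to 4.50% in the un-wounded libraries, and all intervals cover counting error only. The means were 0.513% ± 0.159 in wounded skin (SD, n = 3) and 2.71% ± 1.74 in un-wounded skin (SD, n = 2). The exact two-sided permutation test over libraries gave p = 0.1, the smallest that these groups allow, and 0.4 after Benjamini-Hochberg adjustment over 4 such tests.

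The share among keratinocytes did not follow the same order. Keratinocytes that met the keratin and collagen limits were 28.1%, 2.87% and 6.09% of kept cells in the wounded libraries and 58.6% and 29.3% in the un-wounded ones. Of these keratinocytes, follicle cells were 2.32%, 19.1% and 5.58% in the wounded libraries and 2.53% and 13.5% in the un-wounded ones. The groups overlapped, with means of 8.99% ± 8.89 in wounded skin (SD, n = 3) and 8.01% ± 7.75 in un-wounded skin (SD, n = 2), and an exact permutation p of 1. After each cell was thinned to 2000 UMIs, follicle cells were 0.200%, 0.197% and 0.0485% of cells in the wounded libraries and 0.807% and 1.64% in the un-wounded ones. Shares of cells depend on which cells survive dissociation and the sort, which was not tested.

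**Figure D3:**
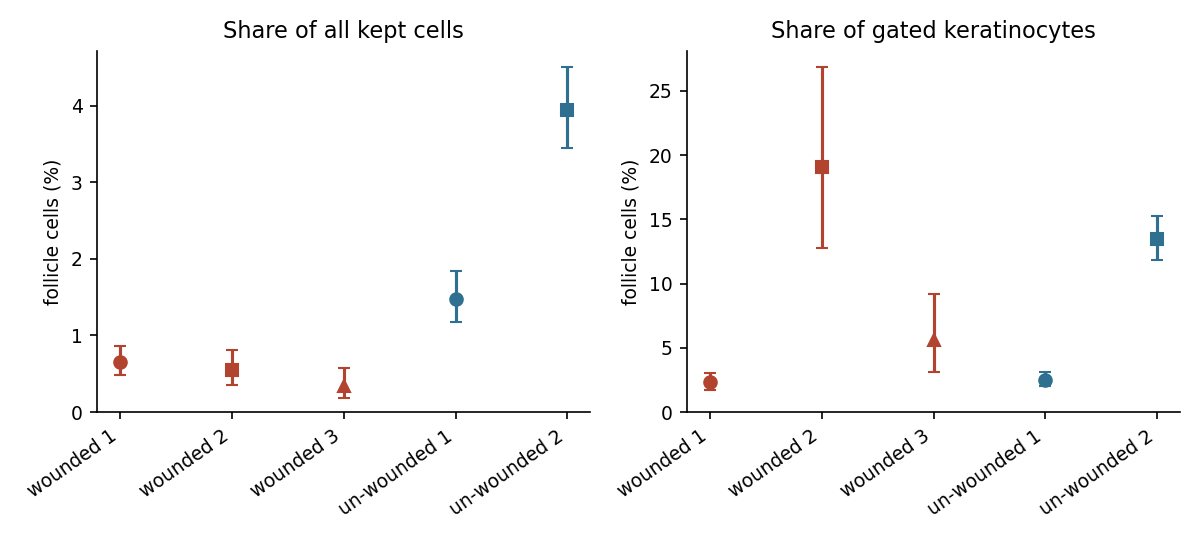
Follicle cells as a percentage of all kept cells (left) and of keratinocytes within the keratin and collagen limits (right) in each library, with exact 95% binomial intervals (counting error only). On the left the wounded libraries lie between 0.339% and 0.652%, below the un-wounded ones at 1.48% and 3.94%; on the right the groups overlap.

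UMIs of proliferation genes were seen in follicle cells of both groups, and the groups overlapped. With cells thinned to 2000 UMIs, at least 2 of 18 proliferation genes were seen in 36.7%, 8% and 50% of follicle cells of the wounded libraries and in 28% and 20.5% of those of the un-wounded ones. The means were 31.6% ± 21.5 in wounded skin (SD, n = 3) and 24.2% ± 5.32 in un-wounded skin (SD, n = 2), with an exact permutation p of 0.7 and an adjusted p of 0.933. At least 3 of these genes were seen in 6.12%, 4% and 21.4% of follicle cells when wounded and in 4% and 6.19% when un-wounded. Tubb4b and Hmgb2, which cells at rest also express, were the most abundant of the 18. Top2a, an enzyme of dividing cells, was at 10.9 CPM or less in every sub-cluster but sub-cluster 1, so how many cells were dividing cannot be read from the shares. Among other keratinocytes, the share was 33.8%, 16.4% and 24.5% in the wounded libraries and 35.6% and 23% in the un-wounded ones. Without wounded library 3 the difference in means was -1.87 percentage points instead of 7.34.

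Within the follicle cells, Cxcl2, Ccl2 and Slpi were the genes that rose 4 days after wounding. UMIs were summed per library over follicle cells, and wounded and un-wounded libraries were compared by edgeR's quasi-likelihood test with Benjamini-Hochberg adjustment over 4031 genes. At an adjusted p under 0.05, 3 genes were called, 0.0744% of those tested, and all 3 rose. By the same test 0 genes fell (115 at an unadjusted p under 0.05), while DESeq2 called 31 higher and 1 lower. At an unadjusted p under 0.05 there were 300 genes in all, 7.44%, and the levels of the groups did not overlap for 870 genes, 21.6%. The median log2 fold change over all tested genes was 0.01.

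Cxcl2, a chemokine that draws neutrophils, had 148, 219 and 114 CPM in wounded follicle cells, against 4.30 and 5.19 CPM in un-wounded ones. The groups were far apart, with a log2 fold change of 5.02 ± 0.46 (SE; edgeR adjusted p = 0.00269). Cxcl2 lies on chromosome 5 at 90903871 to 90905938 (GRCm38). Cells with little Krt5 and Krt14 in the same libraries had 1777, 2935 and 4292 CPM when wounded and 34.1 and 70.7 CPM when un-wounded. Other keratinocytes had 366, 911 and 129 CPM when wounded and 3.29 and 3.92 CPM when un-wounded.

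Ccl2, a chemokine that draws monocytes, had 179, 156 and 131 CPM in wounded follicle cells, against 27.9 and 21.9 CPM in un-wounded ones. The 3 wounded values all lay well above the un-wounded ones, with a log2 fold change of 2.77 ± 0.30 (SE; edgeR adjusted p = 0.00724). Ccl2 lies on chromosome 11 at 82035571 to 82037453. Cells with little Krt5 and Krt14 had 3378, 1043 and 1929 CPM of Ccl2 when wounded and 140.5 and 313 CPM when un-wounded. Of the Ccl2 UMIs in follicle cells of wounded library 3, 86.7% came from 2 cells.

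Slpi, a secreted inhibitor of neutrophil proteases, had 33.9, 78.1 and 65.6 CPM in wounded follicle cells, against 0 and 0.577 CPM in un-wounded ones. In counts this was 41 UMIs in the 3 wounded libraries and 1 UMI in the 2 un-wounded ones, a ratio of 121 per UMI sequenced with an exact 95% interval from 20.5 to 4894 that covers counting error only. The edgeR adjusted p was 0.0272. Slpi spans 164354070 to 164389095 on chromosome 2. Cells with little Krt5 and Krt14 had 112, 376 and 505 CPM when wounded and 0 and 4.99 CPM when un-wounded.

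All 3 genes were thus more than 3 times higher in the cells with little Krt5 and Krt14 of wounded skin than in the follicle cells. Among the 3826 genes left when every gene over 3 times higher in those cells of either group is set aside, which removes all 3, edgeR called 0 (246 at an unadjusted p under 0.05). How much of the 3 values is RNA from those cells was not tested. Without the cells that held 3 or more markers of another type, Cxcl2 was still called, at a log2 fold change of 5.12 (edgeR adjusted p = 0.000458). Under the same setting, chosen after the data were seen, Ccl2 had a log2 fold change of 3.39 (edgeR adjusted p = 0.0671) and Slpi a fitted one of 6.29, against 6.51 with all cells (edgeR adjusted p = 0.111). When each library lost, for every gene, its 2 cells with the most UMIs, Cxcl2 was called at 5.40 (edgeR adjusted p = 0.0221), while Ccl2 was at 2.76 and not called (edgeR adjusted p = 0.371), nor was Slpi (edgeR adjusted p = 0.399). Without un-wounded library 2, which holds 212 of the un-wounded follicle cells, edgeR called none (190 at an unadjusted p under 0.05), with Cxcl2 at 5.21 and Ccl2 at 2.59.

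Several genes fell short of edgeR's threshold, at adjusted p from 0.0552 to 0.131 for those named here. In wounded skin these had no higher mean in the cells with little Krt5 and Krt14 than in follicle cells. They were chosen after their values were seen. By edgeR none was called, whereas DESeq2 called Plk2, Serpinb1a, Nrg1, Gpx2 and Phlda1, with adjusted p of 0.00128, 0.00124, 0.00178, 0.00787 and 0.00314. Plk2, a kinase induced by growth signals, had 172, 62.5 and 105 CPM in wounded follicle cells and 15 and 22.5 CPM in un-wounded ones (edgeR adjusted p = 0.0644). Serpinb1a, a protease inhibitor, had 136, 57.2 and 83.1 CPM in wounded cells and 15 and 17.3 CPM in un-wounded ones (edgeR adjusted p = 0.0552). For both, each wounded value was more than 2 times each un-wounded one. In un-wounded skin Serpinb1a was 3.37 times higher in the cells with little Krt5 and Krt14 than in follicle cells.

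Nrg1, an ERBB receptor ligand, had 37.0, 41.6 and 105 CPM in wounded cells and 0 and 5.19 CPM in un-wounded ones (edgeR adjusted p = 0.0963). Gpx2, a glutathione peroxidase, had 24.6, 88.5 and 91.8 CPM in wounded cells and 2.15 and 8.65 CPM in un-wounded ones (edgeR adjusted p = 0.131). Nrg1 and Gpx2 were low in the other cell sets, with Gpx2 at 4.16 CPM or less in other keratinocytes and at 0.162 CPM or less in cells with little Krt5 and Krt14. Phlda1, known as a marker of follicle stem cells, had 1010.2, 515 and 1736 CPM in wounded cells and 178 and 262 CPM in un-wounded ones (edgeR adjusted p = 0.131). Without the cells that held 3 or more markers of another type, Nrg1 was at a log2 fold change of 2.84 (edgeR adjusted p = 0.862). Gpx2 was then at 2.58 (0.575) and Phlda1 at 2.26 (0.243), while Plk2 was called at 2.84 (0.0101). With membership after thinning, which left wounded library 1 alone, Phlda1 was at 0.650, against 2.38 with all cells.

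Lower values in wounded follicle cells were found for Sncg, Krt24 and Chat, chosen after their values were seen, and edgeR called none of them. Sncg, a synuclein, had 27.7, 0 and 4.37 CPM in wounded follicle cells and 83.8 and 118 CPM in un-wounded ones, a log2 difference of -2.91 ± 0.59 (edgeR adjusted p = 0.128), and was the 1 gene that DESeq2 called lower (adjusted p = 0.0369). Krt24 had 77.0, 57.2 and 17.5 CPM in wounded follicle cells and 187 and 175 CPM in un-wounded ones, a log2 difference of -1.72 ± 0.40 (edgeR adjusted p = 0.174). Krt24 was highest in sub-clusters 4 and 2, which together took 12, 5 and 1 follicle cells in the wounded libraries and 29 and 93 in the un-wounded ones, and the part of this in its difference was not tested. Sncg was highest in sub-cluster 8, at 863 CPM. All 17 cells of that sub-cluster came from un-wounded skin, and their part in the Sncg difference was not tested. Chat, the enzyme that makes acetylcholine, had 12.3, 10.4 and 0 CPM in wounded cells and 62.3 and 60 CPM in un-wounded ones (edgeR adjusted p = 0.127). In other keratinocytes Chat had 0.176 CPM or less in every library.

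**Figure D4:**
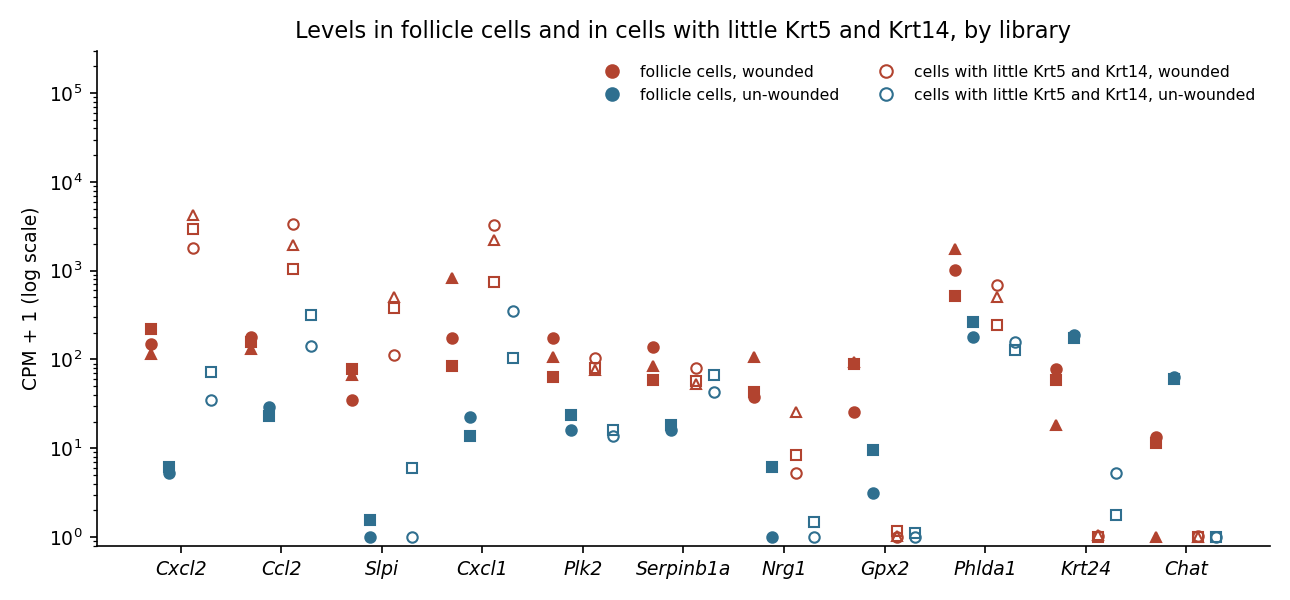
CPM + 1 on a log axis of 11 genes in follicle cells (filled) and in cells with under 5 UMIs of Krt5 and Krt14 per 10000 (open), each point a library (circle, square and triangle are replicates 1, 2 and 3; wounded red, un-wounded blue; a level of 0 lies at 1). Cxcl2, Ccl2 and Slpi, the 3 called genes, are higher still in the other cells, while Gpx2, Krt24 and Chat, none of them called, are near 0 there.

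Of the 12 listed follicle stem cell transcription factors, 9 were tested and 0 were called by edgeR (2 at an unadjusted p under 0.05). Their median log2 difference was 0.00, beside 0.01 for all genes. Nfib, a transcription factor of follicle stem cells, had 425, 499.6 and 306 CPM in wounded follicle cells and 453 and 649 CPM in un-wounded ones. Tbx1 had an unadjusted p of 0.0168 for its lower values in wounded cells and Sox9 one of 0.0232 for its higher values, with edgeR adjusted p of 0.445 and 0.488.

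Genes of the bulge surface, matrix and secreted signals numbered 18, of which 17 were tested and 0 were called (3 at an unadjusted p under 0.05). Their median log2 difference was -0.30, with 11 lower and 6 higher, and Cd34 in the list is itself a selection gene. Cxcl14, a chemokine of resting epithelium, had 2686, 2358 and 2388 CPM in wounded follicle cells and 3525 and 3497 CPM in un-wounded ones. Grem1 had 92.4, 36.4 and 61.2 CPM in wounded cells and 172 and 129 CPM in un-wounded ones (edgeR adjusted p = 0.326). The groups did not overlap for either gene, as for 21.6% of all tested genes, and Grem1 was named after its values were seen.

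Among BMP targets and inhibitors of WNT signals, 7 of 14 listed genes were tested and 0 were called (2 at an unadjusted p under 0.05), with a median log2 difference of -0.23. The BMP target Id1 had 539, 1139.7 and 48.1 CPM in wounded follicle cells and 758 and 311 CPM in un-wounded ones, a spread within each group that exceeds the difference between them. Dkk3, an inhibitor related to the DKK family, had 80.1, 67.7 and 78.7 CPM in wounded cells and 137 and 133 CPM in un-wounded ones (edgeR adjusted p = 0.456). Dkk3 was named after its values were seen. Of the 13 genes of the hair germ and of WNT and hedgehog activation, 4 were tested and 0 were called (1 at an unadjusted p under 0.05). The hedgehog ligand Shh had no UMI in the follicle cells of any library. The WNT target Axin2 was at 5.20 CPM or less in wounded cells and at 10.7 and 15 CPM in un-wounded ones.

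Of the 7 isthmus and upper follicle genes, 5 were tested, 0 were called (2 at an unadjusted p under 0.05) and the median log2 difference was -0.91. Of the 8 interfollicular basal genes, 6 were tested, 0 were called (3 unadjusted) and the median was 0.85. Klf5, a transcription factor of epidermal progenitors, had 89.3, 78.1 and 157 CPM in wounded follicle cells and 34.4 and 45.5 CPM in un-wounded ones (edgeR adjusted p = 0.203). The values of Klf5, named after they were seen, did not overlap between the groups, as for 21.6% of all tested genes. The 11 genes of hemidesmosomes, laminins and basal integrins had 10 tested and 0 called (0 unadjusted), with a median of -0.08.

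Among the lists of keratinocyte genes, the medians over tested genes were highest for cytokines, interferon response and wound activation. A gene near 0 in un-wounded cells could be tested through its wounded libraries, as S100a9 was, so these medians may favour rises. Summed over all genes of the list, wound activation overlapped between groups, at 7734, 5319 and 5952 CPM when wounded and 7327 and 3873 CPM when un-wounded. The summed cytokine and interferon lists did not overlap. Of the 13 chemokines and cytokines in the table, 7 were tested and 2 rose, Cxcl2 and Ccl2 (5 at an unadjusted p under 0.05). Over all tested genes, 0.0744% were called and 7.44% had an unadjusted p under 0.05. The median log2 difference of the list was 2.77. Cxcl2 and Ccl2 were both more than 3 times higher in the cells with little Krt5 and Krt14 of wounded skin. Cxcl1, another neutrophil chemokine, had 172, 83.3 and 826 CPM in wounded follicle cells and 21.5 and 12.7 CPM in un-wounded ones (edgeR adjusted p = 0.128). Sub-cluster 1 held the most Cxcl1, at 463 CPM, and took 9 of 14 follicle cells of wounded library 3. The part of that sub-cluster in the difference was not tested. Il1b, the cytokine interleukin 1 beta, had 30.8, 119.7 and 78.7 CPM in wounded cells and 0 and 5.19 CPM in un-wounded ones (edgeR adjusted p = 0.0952). It was 22.1 times higher in the cells with little Krt5 and Krt14 of wounded skin.

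Of the 18 wound-activated keratinocyte genes, 8 had enough UMIs to be tested, 0 were called (4 at an unadjusted p under 0.05) and their median log2 difference was 1.73. S100a9, a subunit of calprotectin that is abundant in neutrophils, had 24.6, 62.5 and 56.8 CPM in wounded follicle cells and no UMI in un-wounded ones. Against the 3 UMIs that a count of 0 allows over the un-wounded group, the 33 wounded UMIs were 32.5-fold higher per UMI sequenced. This ratio pools the libraries and allows for counting error in the un-wounded count only. The edgeR adjusted p was 0.0644. The neutrophil receptor Cxcr2 had no UMI in wounded follicle cells, and Retnlg was at 5.20 CPM in wounded library 2 and at 0 in the others. Krt17, an outer root sheath keratin that is also induced in wounds, had 7155, 3997 and 3844 CPM in wounded cells and 6910.2 and 3536 CPM in un-wounded ones, so it overlapped between the groups.

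Of the 14 interferon response genes, 3 were tested and 0 were called (3 at an unadjusted p under 0.05), with a median of 1.96. Ifitm3 had 1595, 838 and 1133 CPM in wounded follicle cells and 434 and 616 CPM in un-wounded ones (edgeR adjusted p = 0.269). The 18 glycolysis and hypoxia genes had 15 tested and 0 called (4 unadjusted), with a median of 0.27. Hif1a, the hypoxia factor, had 148, 109 and 184 CPM in wounded cells and 45.1 and 66.9 CPM in un-wounded ones (edgeR adjusted p = 0.174). Neither gene overlapped between the groups, which held for 21.6% of all tested genes, and Hif1a was named after its values were seen. The lists of immediate early genes (13 tested), heat shock genes (9), class I presentation genes (10), oxidative phosphorylation genes (18) and proliferation genes (11) had 0 called genes each (2, 0, 0, 0 and 0 at an unadjusted p under 0.05), with medians of -0.23, 0.08, 0.16, 0.21 and 0.27.

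Markers of other cell types differed between libraries within the follicle cells. The summed endothelial markers had 397, 15.6 and 8.75 CPM in wounded libraries and 4.30 and 5.19 CPM in un-wounded ones, and wounded library 1 alone held Fabp4 at 2101 CPM. The summed T cell markers had 9.24, 31.2 and 704 CPM in wounded libraries and 19.3 and 8.65 CPM in un-wounded ones. The summed Langerhans and dendritic markers had 163, 416 and 2125 CPM in wounded libraries and 168 and 78.4 CPM in un-wounded ones. Cd207, the defining Langerhans marker, was at 6.16 CPM or less in each library. The summed macrophage markers had 9.24, 41.6 and 61.2 CPM in wounded libraries and 12.9 and 17.3 CPM in un-wounded ones. The summed neutrophil markers had 46.2, 93.7 and 122 CPM in wounded libraries and 0 and 1.15 CPM in un-wounded ones. The summed fibroblast markers had 788, 2155 and 302 CPM in wounded libraries and 425 and 1159 CPM in un-wounded ones. Beyond the fit without cells that held 3 or more such markers, their part in the wound differences was not tested.

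The question of whether follicle cells and other keratinocytes of the same libraries differed in their wound effect was tested with library as a block. The test was the interaction of cell set and wound in edgeR's quasi-likelihood model, with Benjamini-Hochberg adjustment over 8909 genes. It called 13 genes, 0.146% of those tested, with 2 higher in follicle cells (0.0224%) and 11 lower (0.123%). At an unadjusted p under 0.05 there were 490 genes, 5.5%. The 7 that met the naming rule were Inhba, Ctla2a, Krt8, Krt6a, Hk2, Id2 and Igfbp4. The other 6, Dct, Gjb2, Myl9, S100a4, Mgp and Basp1, are named after their values were seen. Markers of other cell types also moved with the wound in the other keratinocytes. Their summed neutrophil markers had 123, 2611 and 426 CPM when wounded and 0.882 and 1.65 CPM when un-wounded. Their summed muscle markers had 264, 64.5 and 497 CPM when wounded and 42.0 and 9.74 CPM when un-wounded, and the part of either in the interaction was not tested.

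Krt6a, a keratin that epidermal cells make after wounding and that inner bulge and companion cells make without a wound, gave the clearest difference. It had 92.4, 822 and 568 CPM in follicle cells of the wounded libraries and 70.9 and 122 CPM in those of the un-wounded ones. In other keratinocytes it had 39.7, 545 and 479.9 CPM when wounded and 1.29 and 4.43 CPM when un-wounded. As a ratio, though not in CPM, the un-wounded levels thus differed by far more than the wounded ones. The wound effect in follicle cells minus that in other keratinocytes was -4.61 ± 0.35 on the log2 scale (SE, edgeR adjusted p = 9.76e-07). Krt6a was called in all 11 alternative settings of this test. Within the follicle cells the wounded and un-wounded values of Krt6a overlapped, with a log2 difference of 2.44 ± 0.76 (edgeR adjusted p = 0.345), and 78.5% of its UMIs in wounded library 2 came from 2 cells.

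Krt6b, its near-identical neighbour, had no UMI in follicle cells of any library, which allows up to 9.24, 15.6 and 13.1 CPM in the wounded libraries and 6.44 and 1.73 CPM in the un-wounded ones. In other keratinocytes Krt6b had 7.00, 549 and 439 CPM when wounded and 0.235 and 0 CPM when un-wounded. Reads of such similar genes may be split by the counting in ways that are not known, so the single levels of Krt6a and Krt6b are uncertain. Krt6a lies at 101689910 to 101694307 and Krt6b at 101676023 to 101680287 on chromosome 15, both on the minus strand. Across sub-clusters, Krt6a had 586 CPM in sub-cluster 1, 325 in sub-cluster 2, 228 in sub-cluster 4 and 236 in sub-cluster 8, and 31.9 CPM or less in the others.

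Id2, a BMP target that blocks differentiation factors, had 234, 307 and 70 CPM in follicle cells of the wounded libraries and 500.5 and 262 CPM in those of the un-wounded ones. In other keratinocytes it had 29.8, 81.1 and 22.6 CPM when wounded and 21.2 and 16.2 CPM when un-wounded. Follicle cells were higher in each library, and the difference of wound effects was -2.02 ± 0.34 (edgeR adjusted p = 0.0133). Igfbp4, which binds insulin-like growth factors, had 163, 182 and 149 CPM in wounded follicle cells and 150.4 and 159 CPM in un-wounded ones. Other keratinocytes had 35, 95.7 and 50.5 CPM of Igfbp4 when wounded and 13.4 and 13.9 CPM when un-wounded, and the difference of effects was -1.91 ± 0.33 (edgeR adjusted p = 0.0137).

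Hk2, a hexokinase of glycolysis, followed the same form. It had 37.0, 62.5 and 43.7 CPM in wounded follicle cells and 34.4 and 80.1 CPM in un-wounded ones. Other keratinocytes had 9.88, 60.3 and 32.5 CPM when wounded and 3.23 and 5.69 CPM when un-wounded, a difference of effects of -2.96 ± 0.45 (edgeR adjusted p = 0.00619). For Krt6a, Igfbp4 and Hk2, follicle cells of un-wounded skin stood well above the other keratinocytes. In wounded libraries 2 and 3 the 2 sets were closer as a ratio. With both sets thinned to 2000 UMIs, wounded libraries 2 and 3 kept only 9 and 2 follicle cells and left the fit, so that the values rest on wounded library 1. There Id2, Igfbp4 and Hk2 were not called (edgeR adjusted p = 0.926 each), while Krt6a was called at -6.13. Id2 was not called without un-wounded library 1 (edgeR adjusted p = 0.365), without un-wounded library 2 (0.498) or without the highest doublet scores (0.103), with values of -2.33 to -1.87. Igfbp4 was not called without un-wounded library 1 (edgeR adjusted p = 0.224) or library 2 (0.854), nor Hk2 without library 2 (0.955).

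Inhba and Ctla2a had larger wound effects in follicle cells, and both rest on few cells. Inhba, the activin subunit, had 40, 0 and 162 CPM in wounded follicle cells and 0 and 0.577 CPM in un-wounded ones, with a difference of effects of 6.11 ± 1.06 (edgeR adjusted p = 0.0189). Inhba was not called by DESeq2 (adjusted p = 0.178), nor by edgeR without un-wounded library 2 (adjusted p = 1). Ctla2a, a cysteine protease inhibitor with a close paralog, had 554, 5.20 and 227 CPM in wounded cells and 15 and 6.34 CPM in un-wounded ones. Its difference of effects was 5.83 ± 0.51 (edgeR adjusted p = 6.21e-06), and 2 cells held 98.3% of its UMIs in wounded library 1 and 98.1% in wounded library 3. It was not called without the highest doublet scores (edgeR adjusted p = 0.0572), and with both sets thinned, on wounded library 1 alone, its value was -6.79. Krt8, a keratin of simple epithelia, had 269.5 CPM in other keratinocytes of wounded library 3 and 0.380 CPM or less in those of the other 4 libraries, so its value of -8.73 rests on 1 library. Dct, a melanocyte enzyme, was likewise at 79.1 CPM in other keratinocytes of wounded library 2 and at 0.380 CPM or less in the rest.

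**Figure D5:**
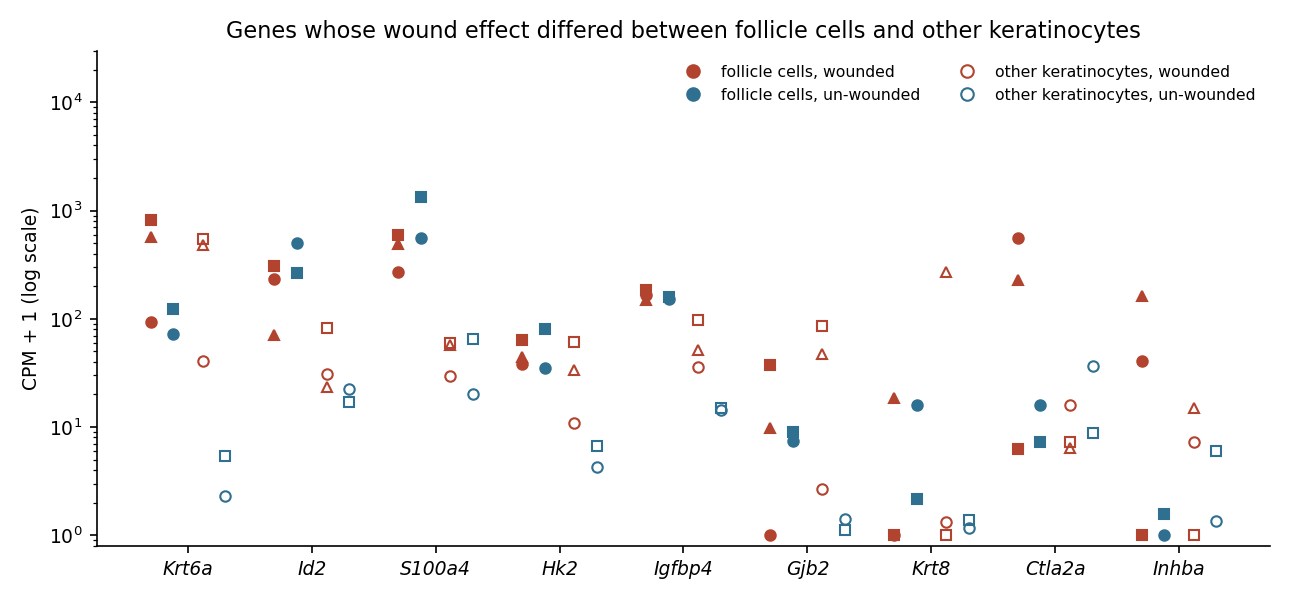
CPM + 1 on a log axis of 9 genes whose wound effect differed between follicle cells (filled) and other gated keratinocytes (open), each point a library (circle, square and triangle are replicates 1, 2 and 3; wounded red, un-wounded blue; a level of 0 lies at 1). For Krt6a, Hk2 and Igfbp4 the un-wounded libraries lie far apart between the 2 sets of cells and wounded libraries 2 and 3 lie closer, and Ctla2a and Inhba are high in follicle cells of wounded libraries 1 and 3.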

How the data were processed

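Live cells sorted from mouse skin were run on the 10x Genomics platform with 3' v1 reagents, per the labels. The values deposited by the authors are unnormalised UMI counts for every gene in every barcode. Per the submitters' processing notes they come from Cell Ranger 1.3.1 and the mm10 genome; how barcodes were filtered before deposit is not given in the sources used here. The tables hold 27998 genes, and library totals ran from 33537809 to 59621412 UMIs.

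Kept barcodes had 200 genes or more and no more than 10% of UMIs from mitochondrial genes. Follicle cells, gated keratinocytes with none of the 5 follicle genes, and cells with little Krt5 and Krt14 were summed per library. Sums were tested with edgeR 4.0.16 (filterByExpr, TMM, quasi-likelihood) and, as an alternative, DESeq2 1.42.0, in R 4.3.3, after tests on simulated data. Shares were compared by exact permutation over libraries (scipy 1.17.1). Follicle cells were clustered with scanpy 1.11.5 (2000 variable genes, 20 components, Leiden resolution 1). Scrublet's own threshold marked at most 0.614% of barcodes in each library and was not used, so the main results remove no doublets; an alternative removes the highest scores at 0.8% per 1000 barcodes. Gene positions come from GENCODE M21 by Ensembl ID, with 352 of 352 matched, and promoters from RefSeq.

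Named genes are those called with a log2 change of at least 1, at least 50 CPM, no overlap between groups (wound effect only) and at most 3 times the level in cells with little Krt5 and Krt14; the 13 genes of the selection were left out, and no gene passed in the wound comparison. The 3 most abundant genes of each list and the 15 with the largest ratio to other keratinocytes were also open to naming. Other list genes, such as Hif1a, Klf5, Grem1, Dkk3, Il1b and Axin2, were named after their values were seen. The selection and the lists were chosen with earlier results of these data known. Alternatives changed the test, scaling, filters, membership, depth, doublets and libraries.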

Additional observations from a re-analysis of the deposited data

Results flagged for a closer look

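For 13 genes a different wound effect in follicle cells and the other gated keratinocytes of the same libraries was called. The call was by the interaction test in edgeR's quasi-likelihood model with Benjamini-Hochberg adjustment over 8909 genes. DESeq2 called 8 of these 13. It did not call Dct and Krt8 (adjusted p = 0.9995 each), Myl9 and Inhba (0.178 each) or Mgp (0.0978). Without the highest doublet scores edgeR called 6 of the 13, and Dct, Krt8, Myl9, Mgp and Basp1 were among those lost. The values below are log2 differences, the wound effect in follicle cells minus that in other keratinocytes.

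Of the 11 lower ones, Krt6a was at -4.61, Hk2 at -2.96, Id2 at -2.02, Igfbp4 at -1.91 and S100a4 at -1.43. S100a4 had 271, 598 and 489.8 CPM in wounded follicle cells and 552 and 1325 CPM in un-wounded ones, and is also strong in cells with little Krt5 and Krt14. Dct was at -10.62, Krt8 at -8.73, Gjb2 at -6.32, Basp1 at -5.87, Myl9 at -3.60 and Mgp at -2.75. Gjb2, a connexin, had 0, 36.4 and 8.75 CPM in wounded follicle cells and 6.44 and 8.07 CPM in un-wounded ones, against 1.65, 85.3 and 46.4 CPM in wounded other keratinocytes and 0.412 and 0.127 CPM in un-wounded ones. Dct in un-wounded follicle cells came almost wholly from 2 cells a library, 92.3% and 94.2% of its UMIs. Basp1, Myl9 and Mgp are each over 7 times higher in the cells with little Krt5 and Krt14 of wounded skin than in follicle cells, and the part of RNA from those cells was not tested.

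The 2 higher ones were Inhba at 6.11 and Ctla2a at 5.83. In wounded follicle cells Inhba had 50 UMIs, against 1 UMI in un-wounded ones.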

How the results depend on the processing

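Against 3 genes called in follicle cells (all 3 among the calls where not said otherwise), DESeq2 called 32, no filter on low counts 226 (197 higher, 29 lower) and the replicate block 13. No UMI of other cell types' markers gave 14 (1 shared) and membership after thinning gave 1 (none shared). At least 3 of the 5 follicle genes gave 0 (148 at an unadjusted p under 0.05), as did leaving out genes over 3 times higher in other cells (246), which removes all 3 called genes. Leaving out 1 library gave 0 to 15: 0 without un-wounded library 2, 1 without un-wounded library 1, 14 without wounded library 1, 15 without wounded library 2 and 2 without wounded library 3. Thinning left out wounded libraries 2 and 3 of the fit, the 3-gene rule wounded library 3 and the marker rule both, so that a lone wounded library is assumed to vary like the others.

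Against 13 interaction calls, no filter gave 87, thinning both sets 7 (1 shared), the 3-gene rule 1 and leaving out the highest doublet scores 6. Leaving out 1 library gave 3 (without un-wounded library 2) to 42 (without wounded library 1), with 30 without wounded library 2 and 8 without un-wounded library 1.

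Values of opposite sign were Fabp5 in the wound effect (-6.24, membership after thinning), Ctla2a in the interaction (-6.79, both sets thinned), the share of gated keratinocytes (0.986 percentage points) and the proliferating share (-1.87 without wounded library 3, and up to 19.1 points without wounded library 2, beside 7.34). The share of kept cells differed by -2.20 points, by -2.11 in the replicate block and by -3.43 to -0.969 with 1 library left out. A check of the pairing gave correlations of 0.183 for replicate 1 and 0.118 for replicate 2, over 2 pairs that the labels do not pair. The replicate block is therefore an alternative only. It also called F3, Pmepa1 and Gpx2 (edgeR adjusted p = 0.0322, 0.00768 and 0.0322). No other setting moved a count by over 1.5 times, but 1 of the 3 wound calls was shared by the 2 genes called when every gene lost its 2 strongest cells a library, and 1 by the 3 called without cells holding 3 markers of another type. Among single genes, the settings other than leaving out 1 library kept direction and call status of wound effects in 130 cases. A call was gained in 34 and lost in 7. Interaction values kept both in 42 cases and lost the call in 26. Some of these settings still dropped wounded libraries with too few cells, as given above. Of the genes followed for the wound effect, 3 were called in the main fit and 14 were not, so a kept status often means no call in either fit. The causes were not tested. Wounded libraries held 14 to 49 follicle cells each, and 4031 of 27998 genes had enough UMIs to be tested.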

Other observations

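Among genes that belong to no comparison above, the tissue factor gene F3, which starts coagulation, had 92.4, 10.4 and 171 CPM in wounded follicle cells and 2.15 and 1.15 CPM in un-wounded ones (edgeR adjusted p = 0.0644). In counts this was 71 UMIs in wounded follicle cells and 3 UMIs in un-wounded ones, a ratio of 69.8, and all of its UMIs in wounded library 2 came from 2 cells. Pmepa1, a target of TGF-beta signals, had 49.3, 135 and 43.7 CPM in wounded cells and 4.30 and 8.07 CPM in un-wounded ones (edgeR adjusted p = 0.0952). The EGF receptor ligand Areg had 49.3, 26 and 87.5 CPM in wounded cells and 2.15 and 8.07 CPM in un-wounded ones (edgeR adjusted p = 0.128). These 3 genes were chosen after their values were seen, and their groups did not overlap, as for 21.6% of all tested genes. By edgeR none was called, while DESeq2 called F3, Pmepa1 and Areg, with adjusted p of 0.000433, 0.00148 and 0.0124.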
